A study of Mus musculus with 8 samples.

Results

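The genes described here are 9 genes of interferon signalling and viral RNA sensing: Ifnar2, Stat2, Irf9, Usp18, Isg15, Irf7, Irf1, Ifih1 and Rsad2. They were chosen by name, with earlier results of these data known. All probe sets of the array whose annotation carries one of these symbols were taken. This gave 14 probe sets, of which 13 name 1 gene only, on an array whose annotation gives a probe set of its own to 18193 genes. All 8 members with a probe set of their own were among the 12223 genes tested, and each had a mean above the brightness filter in all 4 groups. The only probe set of Isg15 is shared with Gm9706, so it is given as values, with no test, and counted in no total.

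RNA of 8 mouse samples was measured on expression arrays, 2 arrays for each of 4 groups. All groups carried an AID-GFP reporter, in which green fluorescent protein marks cells that express AID, the activation-induced deaminase through which B cells switch and mutate their antibody genes. The groups were GFP-negative and GFP-positive BCR-ABL1 bone marrow cells, and GFP-negative and GFP-positive splenic B cells stimulated with lipopolysaccharide (LPS) and interleukin 4 (IL4). BCR-ABL1 is the fusion kinase of chronic myeloid leukaemia and of a form of acute lymphoblastic leukaemia. The question was which transcripts differ between reporter-positive and reporter-negative cells. The sources used here do not give how the reporter was built, how BCR-ABL1 was introduced, the age of the animals, the purity of the fractions, whether animals or clones were pooled, or whether the 2 replicates of a group were separate mice or cultures. The p-values therefore measure only the spread between these arrays, which may be technical.

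Type I interferons bind a receptor built of IFNAR1 and IFNAR2, whose kinases JAK1 and TYK2 phosphorylate STAT proteins, STAT2 among them. STAT2 and IRF9 are subunits of the complex ISGF3, which binds interferon-stimulated response elements (ISREs) in the promoters of antiviral genes. Interferon gamma acts on gamma-activated sequences (GAS), and IRF1 is a classical target of that route. Double-stranded RNA in the cytoplasm is sensed by MDA5, the product of Ifih1, which signals through MAVS to induce interferon. In B cells, LPS acts through TLR4, and interferon-regulatory factors also take part in B cell development and activation.

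Promoters were read as windows of 300 bases, from 250 before to 50 after an annotated transcript start, from RefSeq (build GRCm38.p6). Windows were found for 8 members, 10 windows in all, and none for Usp18. The ISRE was searched as GAAA, any 2 bases and GAAA again, and the GAS as TTCNNNGAA, on both strands, with overlapping matches counted. The ISRE letters stand in 3.44% of all 32851 windows and in those of 4 members, Rsad2, Stat2, Isg15 and Ifih1. The GAS letters stand in 8.3% of all windows and in those of Irf1 and Ifnar2. Among the effector genes listed further on, 9 of the 20 with a window (25 windows in all) hold the ISRE letters and 6 hold the GAS letters. Members and effectors are counted as genes with a match in any of their windows. The shares are of single windows, so the 2 are not the same measure. The 250 bases upstream of the start are printed for 3 members that differ in class: an antiviral effector and a signalling subunit with an ISRE match, and a transcription factor with a GAS match. The sequences run 5′ to 3′ on the strand of the gene, and capitals mark the match.
Rsad2, chr12:26456453-26456702, minus strand: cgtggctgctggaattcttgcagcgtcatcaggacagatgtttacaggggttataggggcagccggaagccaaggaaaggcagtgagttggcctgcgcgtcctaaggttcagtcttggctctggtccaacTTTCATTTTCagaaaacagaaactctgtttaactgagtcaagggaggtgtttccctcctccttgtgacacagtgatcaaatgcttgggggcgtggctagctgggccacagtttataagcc
Stat2, chr10:128270248-128270497, plus strand: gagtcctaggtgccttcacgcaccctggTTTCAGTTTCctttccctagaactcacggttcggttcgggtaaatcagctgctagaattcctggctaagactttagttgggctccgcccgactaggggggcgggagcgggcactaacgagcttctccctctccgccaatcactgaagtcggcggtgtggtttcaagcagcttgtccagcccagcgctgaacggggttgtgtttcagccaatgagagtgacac
Irf1, chr11:53769764-53770013, plus strand: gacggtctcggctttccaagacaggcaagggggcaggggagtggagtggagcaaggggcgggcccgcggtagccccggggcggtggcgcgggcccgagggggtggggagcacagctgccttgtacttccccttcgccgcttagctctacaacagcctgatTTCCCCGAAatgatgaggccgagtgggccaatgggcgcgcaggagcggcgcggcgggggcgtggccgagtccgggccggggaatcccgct
In Rsad2 the match begins 120 bases before the start, in Stat2 222 bases before it and in Irf1 90 bases before it. Isg15 holds 3 overlapping ISRE matches, which begin 78, 72 and 66 bases before its start. The match of Ifih1 lies inside the transcribed part, 33 bases after the start, and the GAS match of Ifnar2 begins 214 bases before its start. A match is a run of letters and no measured binding.

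Signals below are quantile normalized intensities with a floor of 32, and a fold change is a difference of log2 signals ± its standard error (2 arrays against 2). A gene is called, and said to rise or fall, where the p-value of limma adjusted by Benjamini-Hochberg over all 12223 genes was under 0.05. With 2 arrays against 2 an exact permutation test cannot give a two-sided p under 0.333, so calls come from limma's model alone. The labelled cell types were checked against markers. B cell markers (5 genes) summed to signals of 24942 to 33405 in all 8 arrays, and pre-B cell markers (4 genes) to 25846 to 28444 in BCR-ABL1 arrays and 947 to 2498 in splenic arrays. Single markers did not all follow the sums. In both reporter states 3 pre-B cell markers were called higher and 1 lower in BCR-ABL1 than in splenic cells. Of the B cell markers, 3 were higher and 2 lower among GFP-positive cells, and 1 higher and 3 lower among GFP-negative cells. Of all genes, 50.3% and 78.5% were called in these 2 comparisons. Myeloid markers (10 genes) summed to 73921 and 75856 in the GFP-negative splenic arrays and to 430 to 724 in the other 6. T and NK cell markers (8 genes) summed to 13756 and 15302 in the GFP-negative splenic arrays and to 367.8 to 569 in the others. The GFP-negative splenic arrays also had a 3′ to 5′ signal ratio of Gapdh of 1.93 and 1.88, against 1.40 to 1.48 in the other arrays. In bulk RNA, fewer cells of a type and less RNA per cell cannot be told apart.

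**Figure D1:**
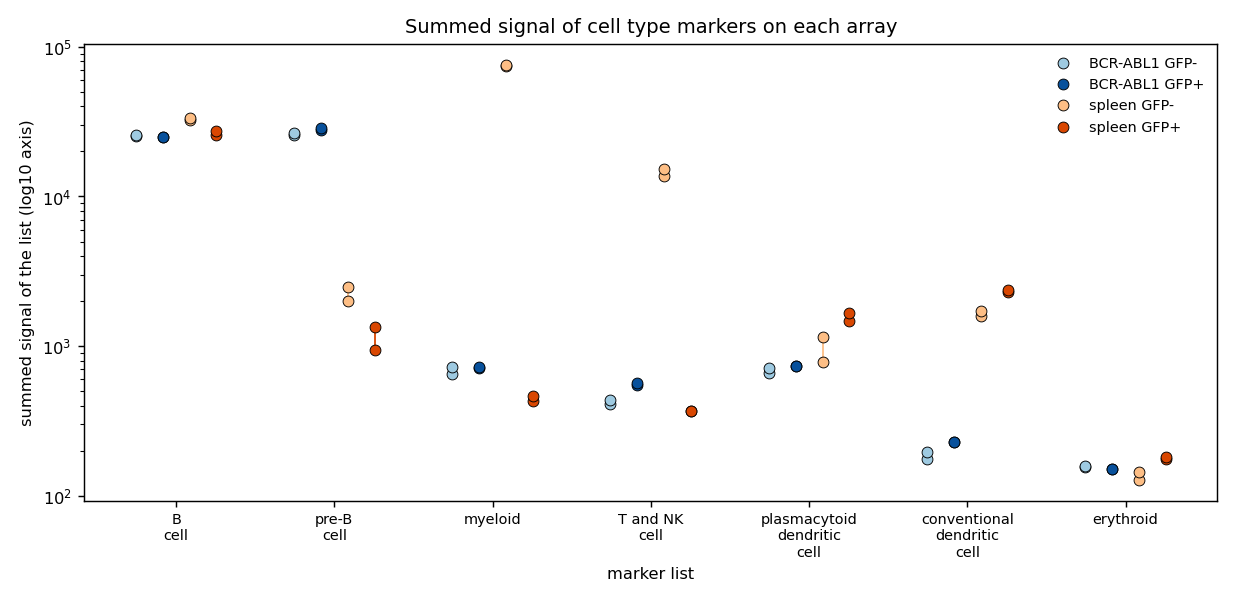
Summed signal of 7 lists of cell type markers, on a log10 axis, with 1 point per array and colours for the 4 groups. The GFP-negative splenic arrays stand apart in the myeloid list, at 73921 and 75856 against 430 to 724 in the other 6 arrays, and in the T and NK cell list.

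In BCR-ABL1 cells, 7 of the 8 tested members were called and all 7 were higher in the GFP-positive arrays. Over all genes tested, 5.37% were called in this comparison, 3.07% higher and 2.30% lower. Because the members were chosen with earlier results of these data known, the gap between these shares and the members' count is a description and no independent test. The median log2 fold change was 0.73 over the 8 members and 0 over all genes. In all 8 members each GFP-positive array lay above each GFP-negative array, which was so for 27.4% of all genes. The rises ran from 0.33 ± 0.075 for Irf1 to 1.53 ± 0.079 for Usp18.

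**Figure D2:**
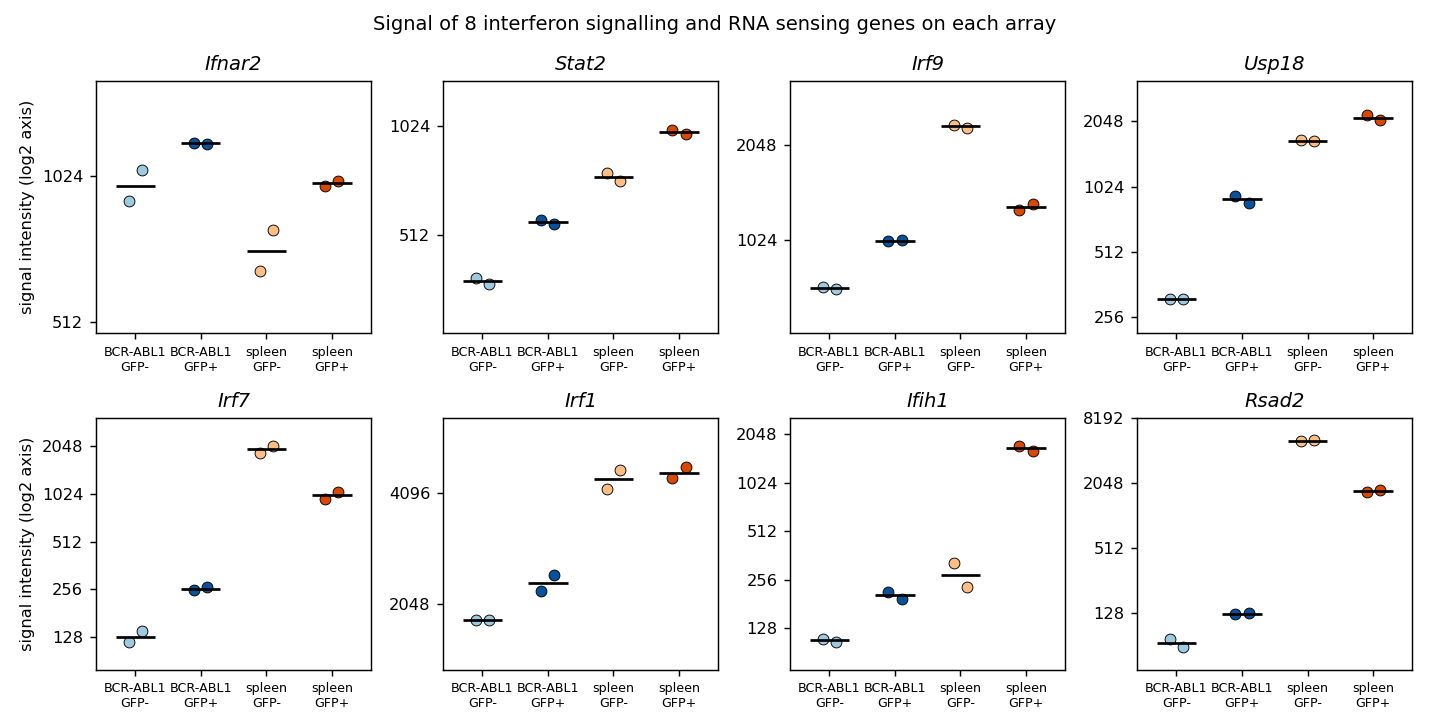
Signal of the 8 tested members in each of the 8 arrays, on a log2 axis, with 1 panel per gene and 1 point per array. The 4 groups stand side by side with a bar at the mean of the log2 signals, and each panel has its own range. The GFP-positive BCR-ABL1 points lie above the GFP-negative ones in all 8 panels, whereas the splenic groups are ordered 1 way in some panels and the other way in others.

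Ifnar2 encodes the interferon-binding chain of the type I receptor. Its signal was 908 and 1050.4 in the GFP-negative and 1199 and 1192 in the GFP-positive BCR-ABL1 arrays. The groups did not overlap, but the difference of 0.29 ± 0.11 did not pass the test (adjusted p = 0.255). Its 2 dimmer probe sets gave 0.38 (adjusted p = 0.154) and 0.53 (adjusted p = 0.566) when all probe sets were tested one by one.

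Stat2 encodes a subunit of ISGF3. Its signal was 389 and 374 in the GFP-negative arrays and 564 and 549 in the GFP-positive arrays, a clear gap against a small spread within groups. Stat2 rose by 0.54 ± 0.087 (adjusted p = 0.0102). Its second, dimmer probe set read 143 and 155 against 185 and 174, which differs by 0.27 (adjusted p = 0.763) and was not called.

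Irf9, the DNA-binding subunit of ISGF3, read 725 and 713 in the GFP-negative and 1012 and 1019.9 in the GFP-positive arrays. It rose by 0.50 ± 0.067 (adjusted p = 0.00444). The ISGF3 partners Stat2 and Irf9 thus both stood higher in both GFP-positive arrays, by similar log2 steps.

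Usp18 removes ISG15 from proteins and blocks signalling at IFNAR2. It read 309.9 and 309.6 in the GFP-negative arrays and 929.9 and 858 in the GFP-positive arrays, the widest step of the members in these cells. The adjusted p was 4.3e-05. The probe set shared by Isg15, a ubiquitin-like protein that is attached to other proteins, and Gm9706 read 178 and 211 against 289 and 296. Both of its GFP-positive arrays were the higher ones.

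Irf7, the factor that amplifies interferon gene transcription, read 119 and 139 in the GFP-negative and 252 and 263 in the GFP-positive arrays. It rose by 1.00 ± 0.12 (adjusted p = 0.00217). Irf1, an activator induced by interferons, read 1853 and 1845 against 2211 and 2444. Its rise of 0.33 had an adjusted p of 0.0442, close to the threshold.

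Ifih1, which encodes the RNA sensor MDA5, read 109.7 and 106 in the GFP-negative arrays and 215 and 194 in the GFP-positive arrays. It rose by 0.92 ± 0.17 (adjusted p = 0.0168). Rsad2 encodes viperin, an enzyme that makes a chain-terminating nucleotide against viral polymerases. It read 72.8 and 61.4 against 125 and 127 and rose by 0.91 ± 0.11 (adjusted p = 0.00228). These Rsad2 signals lie close to the filter, a signal of 51.0, and its 2 dimmer probe sets were at the floor in 7 of 8 readings in BCR-ABL1 cells, with the last at 32.1.

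The rises of Irf7, Usp18 and Rsad2 in BCR-ABL1 cells were called under all 22 alternatives tried, though the size for Rsad2 ran from 0.46, with the mean of its probe sets, to 1.02. Without GFP-negative replicate 1, GFP-negative replicate 2, GFP-positive replicate 1 or GFP-positive replicate 2, 4, 4, 3 and 3 members were called. Stat2 was lost in 6 of 22 alternatives and Ifih1 in 5, the left-out arrays among them. In the order above, Stat2 had an adjusted p of 0.0705, 0.0889, 0.129 and 0.103 (0.00595 to 0.129 over its alternatives), and Ifih1 of 0.123, 0.138, 0.176 and 0.109 (0.00362 to 0.176). Irf9 was lost without GFP-positive replicate 1 (0.0564) or 2 (0.0637; 0.00233 to 0.0637 over its alternatives). Irf1 was lost in 12 of its 22 alternatives, among them without each of the 4 BCR-ABL1 arrays (0.230, 0.220, 0.0979 and 0.339) and without splenic GFP-positive replicate 1 (0.0772) or 2 (0.0778), within a range of 0.0163 to 0.339. No fold change of a member turned sign in this comparison. Among the markers of other cells, the summed myeloid signal was 653 and 724 in GFP-negative and 710 and 724 in GFP-positive BCR-ABL1 arrays, with Csf1r, Itgam, Camp and Ngp at the floor in all 4 and Fcgr1 lower with GFP (-0.76, adjusted p = 0.0352). The summed T and NK cell signal was 410 and 439 against 549 and 569, with Klrd1 higher (0.78, adjusted p = 0.0165). Of the B lineage markers, Cd22 was lower (-1.77, adjusted p = 4.39e-05) and the pre-B cell marker Rag1 higher (1.5, adjusted p = 0.00391). The part of these shifts in the result was not tested.

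In stimulated splenic cells the members split. Of the 8 tested, 4 rose in the GFP-positive arrays (Ifih1, Ifnar2, Stat2 and Usp18), 3 fell (Rsad2, Irf7 and Irf9) and Irf1 was not called. The background was high: 77.1% of all genes were called, 45.7% higher and 31.4% lower, so the members' count of 7 of 8 is near the share of all genes. The median was 0.21 over the members and 0.18 over all genes. In 4 members each GFP-positive array lay above each GFP-negative array, which was so for 49.9% of all genes.

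Ifih1 had the largest rise of the members in these cells. It read 323 and 229 in the GFP-negative arrays and 1733 and 1619 in the GFP-positive arrays, a change of 2.62 ± 0.17 (adjusted p = 1.56e-06). The GFP-negative replicates differed from each other, yet both lay far below the GFP-positive arrays.

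Stat2 read 757 and 722 against 996 and 972 and rose by 0.41 ± 0.087 (adjusted p = 0.00238). Usp18 read 1673 and 1659 against 2194 and 2071 and rose by 0.36 ± 0.079 (adjusted p = 0.0031). In both, the lower GFP-positive array stood clear of the higher GFP-negative array. Ifnar2 read 650.4 and 791 against 978 and 999.8 and rose by 0.46 ± 0.11 (adjusted p = 0.00541). Its other probe sets disagreed: tested one by one, they changed by -0.11 (adjusted p = 0.372) and 1.55 (adjusted p = 0.000931), so the size for the gene depends on the probe set. The second probe set of Stat2 rose by 1.14 (adjusted p = 0.000632), more than the brighter one. The probe set shared by Isg15 and Gm9706 read 1545 and 1631 against 3097 and 3356, with both GFP-positive arrays higher.

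Rsad2 read 5069 and 5123 in the GFP-negative arrays and 1704 and 1764 in the GFP-positive arrays. It fell by 1.56 ± 0.11 on the log2 scale (adjusted p = 2.71e-06), the deepest fall of the members. Its second probe set also fell, from 1642 and 1483 to 619.6 and 596, whereas the dimmest, at 39.4 and 58.3 against 76.3 and 79.5, lay under the filter and ran the other way.

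Irf7 read 1874 and 2073 against 956 and 1053, a change of -0.97 ± 0.12 (adjusted p = 8.2e-05). Irf9 read 2379.7 and 2327 against 1275 and 1334, a change of -0.85 ± 0.067 (adjusted p = 5.83e-06). Both factors, which rose with GFP in BCR-ABL1 cells, thus stood lower in both GFP-positive splenic arrays. Irf1 read 4217 and 4737 against 4497 and 4824. Its groups overlapped, and its difference of 0.06 ± 0.075 had a 95% interval of -0.11 to 0.23 (adjusted p = 0.487).

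The 7 splenic calls were kept, in the same direction, under all 22 alternatives, including the deposited scale and a median shift, in which arrays are shifted to a common median. Those 2 scalings moved the median of all genes from 0.18 to 0.39 and 0.55, and the share of higher genes among those called from 59.2% to 69.2% and 75.5%, so the sizes depend on the scaling. Irf7 went from -0.97 to -0.62 on the deposited scale and -0.46 after the median shift, and Irf9 from -0.85 to -0.53 and -0.37. Stat2 went from 0.41 to 0.96 and 1.12, Usp18 from 0.36 to 0.72 and 0.88, and Ifnar2 from 0.46 to 1.01 and 1.17. Over all 22 alternatives Ifih1 ran from 2.36 to 3.20 and Rsad2 from -1.62 to -1.20. Irf1 was called higher on the deposited scale (0.24, adjusted p = 0.0126) and after the median shift (0.40, adjusted p = 0.000531), and read -0.02 without GFP-negative replicate 1 (adjusted p = 0.795; 0.000531 to 0.946 over its alternatives). The myeloid and T and NK cell signals given above fell with GFP in the same arrays: 9 of 9 tested myeloid markers and 7 of 7 tested T and NK cell markers were called lower. In the GFP-positive splenic arrays Csf1r, Itgam, Camp, Ngp and Cd3g were at the floor. Ncr1 was at the floor in all 4 groups and so shows no fall. The part of the myeloid and T and NK cell signals in the splenic differences of the members was not tested. Conventional dendritic cell markers (4 genes) summed to 1596 and 1721 against 2300 and 2382, but went opposite ways: Flt3 rose by 3.66, Itgax went from a mean of 999 to the floor, and Zbtb46 was not called (adjusted p = 0.276). Plasmacytoid ones (5 genes) summed to 780 and 1157 against 1473 and 1669, with 3 called higher and 1 lower.

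The difference between the GFP effects of BCR-ABL1 and splenic cells was tested in the same fit, with positive values where the effect was higher in BCR-ABL1 cells. It was called for 6 of the 8 members, 5 higher and 1 lower, against 69.0% of all genes (28.0% higher and 41.0% lower). The median was 0.72 over the members and -0.18 over all genes. The largest was Rsad2 (2.47 ± 0.15, adjusted p = 2.95e-06), which rose with GFP in BCR-ABL1 cells and fell in splenic cells. Irf7 (1.98 ± 0.17, adjusted p = 1.56e-05) and Irf9 (1.35 ± 0.095, adjusted p = 5.79e-06) also turned direction between the sources.

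Usp18 rose in both sources, and rose more in BCR-ABL1 cells, by 1.17 ± 0.11 (adjusted p = 3.05e-05). Ifih1 also rose in both but less in BCR-ABL1 cells, with a difference of -1.70 ± 0.24 (adjusted p = 0.00027). Irf1 differed by 0.27 ± 0.11 (adjusted p = 0.0491), a call lost without BCR-ABL1 GFP-negative replicate 1 (0.102) or 2 (0.110), BCR-ABL1 GFP-positive replicate 2 (0.168), splenic GFP-negative replicate 2 (0.142), and splenic GFP-positive replicate 1 (0.156) or 2 (0.0548), within a range of 0.0141 to 0.597 over its alternatives. Stat2 differed by 0.13 ± 0.12 (95% interval -0.15 to 0.42, adjusted p = 0.368) and Ifnar2 by -0.17 ± 0.16 (adjusted p = 0.368). No difference was thus shown for either by its brightest probe set. For Stat2 the sign turned, with a call, on the deposited scale (-0.41), after the median shift (-0.56) and with the mean of its probe sets (-0.37). Ifnar2 was called on the deposited scale (-0.72) and after the median shift (-0.87). Tested one by one, its other probe sets were called in opposite directions (0.50, adjusted p = 0.0203, and -1.02, adjusted p = 0.0439). The second probe set of Stat2 was called too (-0.87, adjusted p = 0.0186). The result for both genes thus depends on the probe set. The markers that fell in the splenic GFP-positive arrays enter this difference as well, and their part was not tested.

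**Figure D3:**
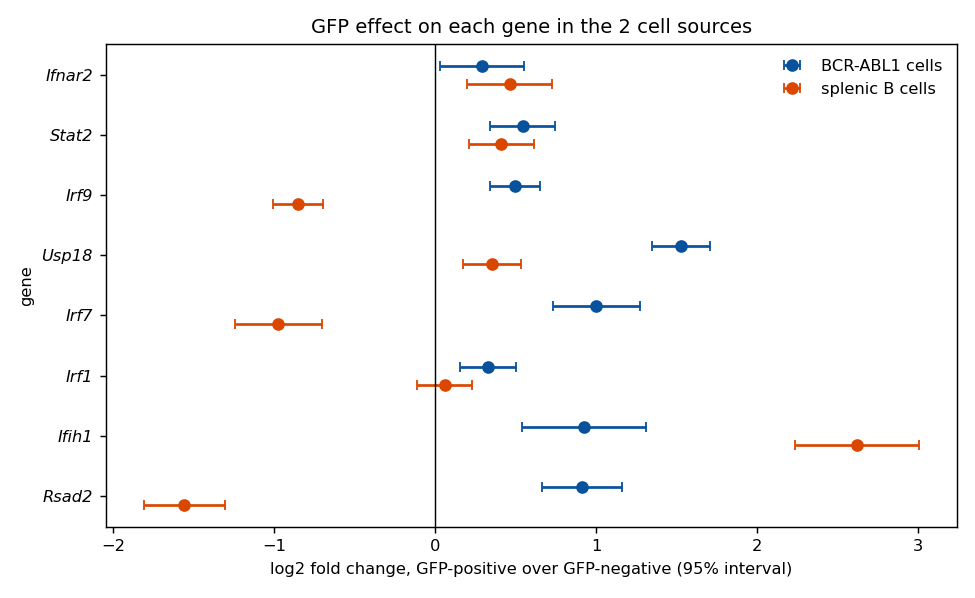
GFP effect of each tested member as a log2 fold change (positive where GFP-positive arrays were higher) in BCR-ABL1 cells and in splenic cells, with bars for the 95% interval from limma (2 arrays against 2). Usp18 (1.53) leads in BCR-ABL1 cells and Ifih1 (2.62) in splenic cells, and Rsad2, Irf7 and Irf9 lie on opposite sides of 0 in the 2 sources.

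Across the 4 groups the members fell into a few orders of level. Irf7, Irf9 and Rsad2 were lowest in GFP-negative BCR-ABL1 cells, followed by GFP-positive BCR-ABL1 cells, GFP-positive splenic cells and, at the top, GFP-negative splenic cells. Stat2, Usp18 and Ifih1 had the same lower part of the order, with GFP-negative splenic cells next and GFP-positive splenic cells highest. In these 6 genes, each read from its brightest probe set, every pair of neighbouring groups was called and no arrays overlapped. The second Stat2 probe set read 185 and 174 in GFP-positive BCR-ABL1 against 151.5 and 225 in GFP-negative splenic arrays. These overlap and were not called apart (adjusted p = 0.85, probe sets tested one by one). The second Rsad2 probe set did not separate the BCR-ABL1 groups, which were at the floor or, in 1 array, at 32.1. Across sources, the neighbouring groups of these genes were GFP-positive BCR-ABL1 and GFP-negative splenic cells, which differed in 78.6% of all genes, or the 2 GFP-positive groups (50.3%). Within sources, 5.37% of all genes were called in BCR-ABL1 and 77.1% in splenic cells. The share of all genes without overlap was not counted across sources. The closest call was that of Ifih1, where GFP-positive BCR-ABL1 and GFP-negative splenic cells differed by 0.41 (adjusted p = 0.0481). It was lost when all probe sets were tested one by one (adjusted p = 0.0522). The place of these 2 groups depends on the scaling for Ifih1 and Stat2. On the deposited scale Ifih1 read 236 and 211 in GFP-positive BCR-ABL1 against 253 and 183 in GFP-negative splenic arrays, which overlap (adjusted p = 0.768). Stat2 read 619.8 and 607 against 578 and 508, the opposite order, and was not called there (adjusted p = 0.122) but was after the median shift (0.30, adjusted p = 0.0226). For the other 6 members the order was the same under the 3 scalings. Irf1 had the same lower part too, but its splenic groups overlapped and were not called apart. By its brightest probe set, Ifnar2 alone among the members was lowest in GFP-negative splenic cells and highest in GFP-positive BCR-ABL1 cells. Its GFP-negative BCR-ABL1 and GFP-positive splenic arrays, next to each other in the order, overlapped (0.018, adjusted p = 0.926; these groups differed in 50.4% of all genes). Its 2 GFP-negative groups were called apart (0.45, adjusted p = 0.00653). Its GFP-positive splenic and GFP-positive BCR-ABL1 arrays did not overlap but were not called apart (adjusted p = 0.0774). A second Ifnar2 probe set had its lowest mean in GFP-positive splenic cells (465, against 502 in GFP-negative ones). Tested one by one, it was called apart between the GFP-positive groups (0.70, adjusted p = 0.00124). It also differed between GFP-negative BCR-ABL1 and GFP-positive splenic cells (0.31, adjusted p = 0.0494). The dimmest Ifnar2 probe set kept the lowest and highest groups of the brightest.

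Compared at the same reporter state, 7 of the 8 members were lower in BCR-ABL1 than in splenic cells. Among GFP-positive cells all members but Ifnar2 were called lower and none higher, against 50.3% of all genes called (24.8% higher and 25.5% lower), and the median was -1.13 against -0.046 over all genes. Rsad2 was 13.8-fold lower (-3.78), Ifih1 8.19-fold lower (-3.04) and Irf7 changed by -1.96. Usp18 (-1.26), Stat2 (-0.82) and Irf9 (-0.36, adjusted p = 0.0023) followed, and Irf1 was 2.00-fold lower. Ifnar2 differed by 0.27 and was not called (adjusted p = 0.0774). It was called in 4 of 20 alternatives. These were the mean of its probe sets (0.55, adjusted p = 0.00181), a block for the replicate number (0.27, adjusted p = 0.0388), and leaving out splenic GFP-negative replicate 1 or 2 (0.27 in each). Its size ran from 0.24 to 0.55 over its alternatives.

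Among GFP-negative cells 7 members were called lower and Ifnar2 higher, against 78.5% of all genes (45.7% higher and 32.8% lower), with a median of -1.52 against 0.16. Rsad2 was 76.2-fold lower (-6.25), and Irf7 changed by -3.94. Usp18 (-2.43), Irf9 (-1.71), Ifih1 (-1.34), Irf1 (-1.27) and Stat2 (-0.95) were lower as well. Read from the brightest probe set or the mean of probe sets, the calls of these 7 held under all 20 alternatives. Sizes moved: Stat2 ran from -0.99 to -0.26, Ifih1 from -1.63 to -0.84 and Ifnar2 from 0.30 to 1.11, with the median shift giving the -0.26, -0.84 and 1.11. Tested one by one, the second Stat2 probe set was not called (-0.31, adjusted p = 0.162). The dimmer Ifnar2 probe sets read 0.20 (adjusted p = 0.123) and 1.71 (adjusted p = 0.000515), so both results depend on the probe set. Ifnar2 was higher by 0.45 ± 0.11 (adjusted p = 0.00653), and by 0.34 without BCR-ABL1 GFP-negative replicate 2 (adjusted p = 0.0581; 9.08e-06 to 0.0581). The myeloid and T and NK cell signals of the GFP-negative splenic arrays enter this comparison too, whereas the comparison of GFP-positive cells uses arrays in which both were low. Dendritic cell markers differed there. Conventional ones summed to 2300 and 2382 in GFP-positive splenic against 228 and 230 in GFP-positive BCR-ABL1 arrays, and plasmacytoid ones to 1473 and 1669 against 737 and 740. Of those tested, 2 of 3 and 2 of 5 were called lower in BCR-ABL1 cells and 0 higher. Their part was not tested. The comparisons within and between sources share arrays, so their values for a member are not independent.

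Genes of the pathway were taken from lists chosen by function, with earlier results of these data known. The lists include members, and a gene can stand in more than 1 list. Of all genes, 5.37% were called in BCR-ABL1 cells (3.07% higher and 2.30% lower) and 77.1% in splenic cells (45.7% higher and 31.4% lower). Of 11 tested receptor, kinase and STAT genes, 3 rose with GFP in BCR-ABL1 cells (median 0.27), and in splenic cells 2 rose and 8 fell (median -0.85). Without members, 1 of 8 rose in BCR-ABL1 cells, and 0 rose and 7 fell in splenic cells. In BCR-ABL1 cells Ifnar1, the partner chain of Ifnar2, rose by 0.40 ± 0.085 (adjusted p = 0.0347), beside Stat2 and Irf9. The kinase genes Jak1 (0.0044, adjusted p = 1.00) and Tyk2 (0.06, adjusted p = 0.891) did not pass there, nor did the interferon gamma receptor chains Ifngr1 (0.30, adjusted p = 0.200) and Ifngr2 (-0.06, adjusted p = 0.969). In splenic cells Ifngr1 fell by 2.14 ± 0.10, Il10rb, a receptor chain for interferon lambda and interleukin 10, fell by 1.81 ± 0.10, Jak2 fell by 1.36 ± 0.051 and Jak1 fell by 1.02 ± 0.060. Ifnar1 (-0.68 ± 0.085), Ifngr2 (-0.87 ± 0.13) and Tyk2 (-0.65 ± 0.077) fell too, but after the median shift Ifnar1 (-0.19, adjusted p = 0.064) and Tyk2 (-0.08, adjusted p = 0.440) were no longer called. Of the splenic counts, 3 rose and 8 fell on the deposited scale, and 3 rose and 6 fell after the median shift.

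Of 10 tested genes of the interferon-regulatory factor list, which are 8 such factors and the IRF2-binding proteins Irf2bp1 and Irf2bp2, 4 rose in BCR-ABL1 cells: Irf7, Irf9, Irf1 and Irf4 (0.21 ± 0.035), a factor of plasma cell and germinal centre fate. Irf3, which is activated by RNA sensing (0.03, adjusted p = 0.943), and Irf8, a factor of B cell and myeloid development (0.14, adjusted p = 0.0895), did not pass. In splenic cells 8 fell and 1 rose (2 rose and 6 fell on the deposited scale, 3 and 5 after the median shift). Without members, 1 of 7 rose in BCR-ABL1 cells, and 1 rose and 6 fell in splenic cells. Both IRF2-binding proteins were among those that fell, with Irf2bp1 (-0.39) changing sign on both other scalings. Irf2bp2 changed by -1.35 ± 0.052 and Irf2, a repressor of interferon responses, by -0.68 ± 0.073, beside Irf7 and Irf9. Irf4 fell by 0.46 ± 0.035 (-0.22 after the median shift) and Irf8 rose by 0.52 ± 0.038. Irf3 fell by 0.50 ± 0.053, a call lost after the median shift (-0.09, adjusted p = 0.165).

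Of 19 tested genes of RNA and DNA sensing, 5 rose in BCR-ABL1 cells and none fell (median 0.21). Beside Ifih1 these included both other members of its helicase family: Dhx58, which encodes the regulator LGP2 (0.81 ± 0.11, adjusted p = 0.00444), and Ddx58, which encodes the sensor RIG-I (0.44 ± 0.085, adjusted p = 0.0225). The nucleic acid sensor Zbp1 (0.37 ± 0.077) and Trim25, a ubiquitin ligase that also conjugates ISG15 (0.36 ± 0.055), rose as well. Mavs, the adaptor of this family, was not called (0.0021 ± 0.13, adjusted p = 1.00). In splenic cells Ifih1 rose, Ddx58 fell by 0.72 ± 0.085, and Dhx58 was not called (0.24 ± 0.11, adjusted p = 0.0784). The latter depend on the scaling: Ddx58 was not called after the median shift (-0.12, adjusted p = 0.262), and Dhx58 was called higher there (0.84) and on the deposited scale (0.68). Mavs rose by 2.01 ± 0.13 and Zbp1 by 1.69 ± 0.077, whereas Cgas, a sensor of cytoplasmic DNA, fell by 3.12 ± 0.18. The list as a whole had 6 higher and 7 lower in splenic cells, 11 and 5 on the deposited scale and 13 and 3 after the median shift. With 77.1% of all genes called in splenic cells in the main scaling, the first of these counts does not set the list apart. Leaving out the member Ifih1, 4 of 18 rose in BCR-ABL1 cells, and 5 rose and 7 fell in splenic cells.

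Of 5 tested genes of ISG15 conjugation, Usp18, Trim25 and the activating enzyme Uba7 (0.35 ± 0.069, adjusted p = 0.0238) rose in BCR-ABL1 cells. The conjugating enzyme Ube2l6 (-0.09, adjusted p = 0.948) and the ligase Herc6 (0.25, adjusted p = 0.223) did not pass. Leaving out the member Usp18, 2 of 4 rose in BCR-ABL1 cells, and 2 rose and 2 fell in splenic cells. In splenic cells Herc6 rose by 1.27 ± 0.093 and Trim25 fell by 0.52 ± 0.055. Ube2l6 was at the floor in both GFP-negative arrays and at a mean signal of 185 ± 28.7 (SD, n = 2) in the GFP-positive arrays, at least 5.74-fold higher. Uba7 fell by 0.32 ± 0.069 in the main scaling. It was not called on the deposited scale (-0.015, adjusted p = 0.874), nor after the median shift (0.14, adjusted p = 0.16), where its sign turned.

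Of 26 tested interferon-induced effectors, 14 rose in BCR-ABL1 cells and none fell (median 0.46), and 11 were called without each of the 4 BCR-ABL1 arrays in turn. Those with the largest rises were Oas3 (2.19 ± 0.17), which makes the activator of RNase L, the RNA-binding proteins Ifit1 (1.37 ± 0.13) and Ifit3 (1.33 ± 0.096), and Rtp4 (1.31 ± 0.089). Ifitm3, which blocks virus entry, rose by 1.12 ± 0.053. In splenic cells 8 rose and 10 fell (13 and 9 on the deposited scale, 15 and 5 after the median shift). Without members, 13 of 25 rose in BCR-ABL1 cells, and 8 rose and 9 fell in splenic cells. In the main scaling 77.1% of all genes were called in splenic cells, so the splenic count does not set this list apart. Ifit3 fell by 3.66 ± 0.096 there and Rtp4 fell by 0.65 ± 0.089 (lost after the median shift, -0.10, adjusted p = 0.351), while Isg20 rose by 1.44 ± 0.10 and Mx2, with 1 of 2 GFP-negative arrays at the floor, rose by 2.63 ± 0.16. Cmpk2, which stands next to Rsad2 on chromosome 12 and supplies the substrate of viperin, differed by 0.45 ± 0.13 in BCR-ABL1 cells (adjusted p = 0.125) and rose by 0.96 ± 0.13 in splenic cells (adjusted p = 0.000217), where Rsad2 fell.

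Of 20 tested targets of IRF1 and interferon gamma, 4 rose in BCR-ABL1 cells: the GTPase genes Iigp1 (1.91 ± 0.15), Igtp (0.56 ± 0.057), Gbp2 (0.47 ± 0.041) and Irgm2 (0.38 ± 0.069). The median of the list was 0.027. In splenic cells 13 rose and 4 fell (median 0.45), with Iigp1 at 5.43 ± 0.15 and Gbp2 at 1.80 ± 0.041. Of all genes, 45.7% rose and 31.4% fell in splenic cells. Ido1, which breaks down tryptophan, was at the floor in both GFP-negative splenic arrays and at a mean of 2765 ± 73.6 (SD, n = 2) in the GFP-positive arrays, at least 86.4-fold higher.

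Of 17 tested negative regulators, 3 rose in BCR-ABL1 cells: Usp18, Tnfaip3 (1.12 ± 0.065), which restrains NF-kB, and Socs3 (0.77 ± 0.089), which restrains JAK kinases. In splenic cells 5 rose and 7 fell (10 and 6 on the deposited scale, 10 and 3 after the median shift). Against 77.1% of all genes called in splenic cells in the main scaling, the first count does not set the list apart. Leaving out the member Usp18, 2 of 16 rose in BCR-ABL1 cells, and 4 rose and 7 fell in splenic cells. Socs3 rose by 2.87 ± 0.089 and Nlrx1 by 2.00 ± 0.17, and Rnf125, a ubiquitin ligase that acts on RIG-I, fell by 2.76 ± 0.15. Of the 11 interferon genes themselves, Ifnk had no probe set of its own. Of the other 10, 7 lay under the filter, Ifng among them, and 3 were bright enough to be tested. Of these 3, 0 were called in BCR-ABL1 cells by limma, and 0 had an unadjusted p under 0.05 there. In splenic cells Ifna1 fell by 0.82 ± 0.14 and Ifnz fell by 1.86 ± 0.17, 2 of the 3 tested. Ifnb1, Ifna2, Ifna4, Ifna9, Ifna11 and Ifnab were at the floor in all 8 arrays, which says only that these probe sets gave no signal above it.

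Without BCR-ABL1 GFP-negative replicate 1 or 2 or GFP-positive replicate 1 or 2, 0 or 1 receptor, kinase and STAT genes, 1 or 2 genes of the interferon-regulatory factor list, 0 to 2 sensing genes, 1 or 2 ISG15 conjugation genes and 3 targets of IRF1 were called in BCR-ABL1 cells. Over all genes the calls then fell from 656 to between 209 and 228.

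**Figure D4:**
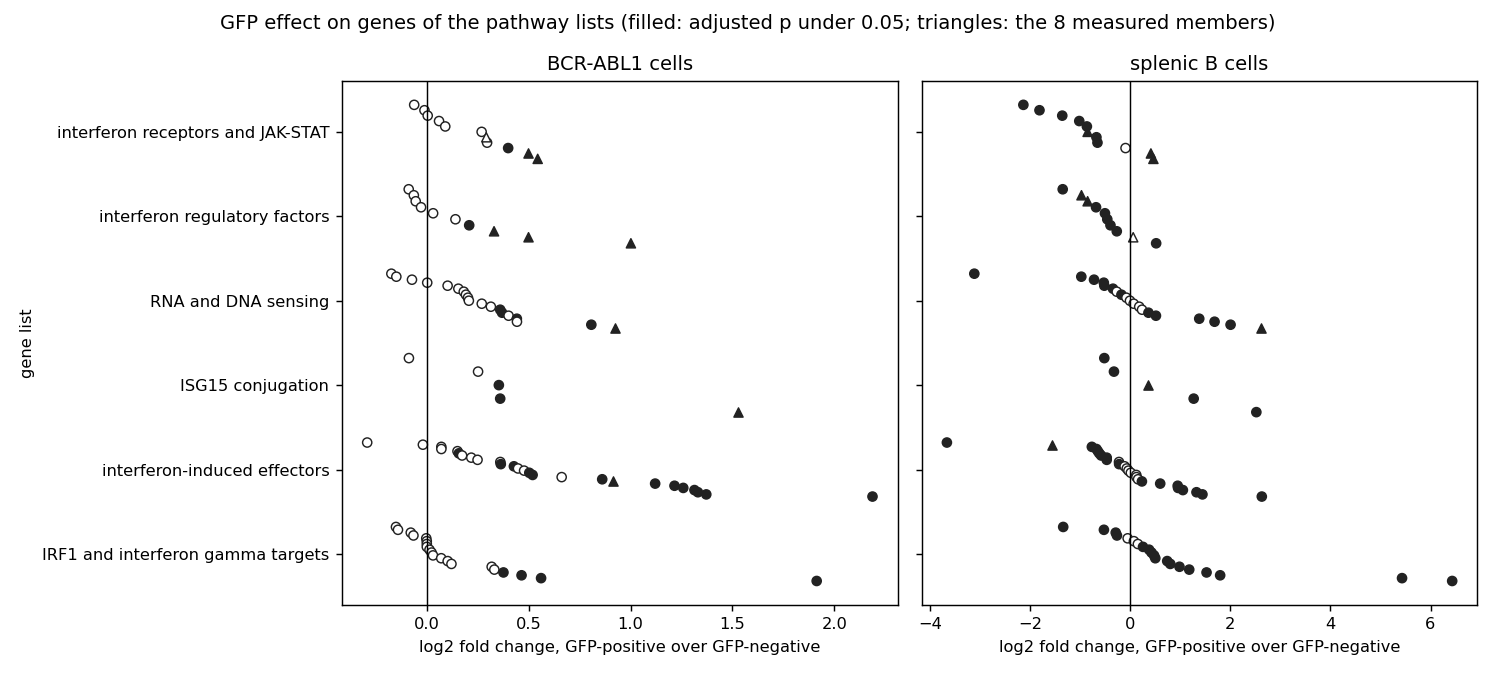
Log2 fold changes of the tested genes of each pathway list, with 1 point per gene, 1 row per list, and 1 panel per source (the panels have different x ranges). Filled points had an adjusted p under 0.05 and triangles are the members. In BCR-ABL1 cells no filled point lies left of 0, while in splenic cells filled points lie on both sides.

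The genes whose pattern over the 8 arrays was nearest to each member were found from the root mean square difference of log2 signals, each gene centred on its own mean. Ifih1 was nearest to Gbp6 (0.20), an interferon-induced GTPase gene, Plscr1 (0.30) and Gm5547 (0.32). Stat2 was nearest to Zfyve26 (0.11), Themis2 (0.13) and Irgm2 (0.14). Irf7 was nearest to Rnase6 (0.17), Prg2 (0.23) and Emb (0.26), and Rsad2 to Wfdc17 (0.27), Tlr1 (0.35) and Bcl6 (0.42). Both members had their highest signals in the GFP-negative splenic arrays. Irf9 was nearest to Ier5 (0.075), Abcc1 (0.080) and Trp53inp2 (0.083). Usp18 was nearest to Gimap4 (0.28), H2-DMa (0.33) and Gimap3 (0.33). Irf1 was nearest to Slc49a4 (0.062), Rftn1 (0.083) and Eogt (0.083), and Ifnar2 to Ogfod1 (0.069), Stx6 (0.069) and Rala (0.074). Among the 28 pairs of members, Stat2 and Irf1 were nearest (0.21), and Irf7 and Rsad2 had the highest Pearson correlation over the 8 arrays (0.99), a description of 4 groups of arrays and not of independent samples.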

How the data were processed

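RNA of the 8 samples was labelled and hybridised with the array maker's standard protocol, per the labels. The deposited table holds the authors' signal intensity per probe set on a linear scale. GCOS 1.3 is named per the submitters' processing notes, and how probes were summarised and arrays scaled is not given in the sources used here. Members and gene lists were chosen with earlier results of these data known.

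Of 45101 probe sets, 64 controls were left out. Of the 45037 left, 34945 had 1 gene symbol in the platform annotation, 932 several and 9160 none. The symbols were checked through 34741 Entrez IDs, which changed 0 of them. Array mean intensities (2% trimmed) differed by up to 1.24 times, more than the 1.1 set as a limit, so arrays were quantile normalized, floored at 32 and log2 transformed. Quantile normalization gives all arrays 1 distribution, which can shift genes where fractions differ widely. The dimmest probe sets, those whose mean over the 8 arrays lay below the 40th percentile (log2 value 5.67), were left out, and each gene was read from its brightest probe set.

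All 8 arrays were fitted with limma 3.58.1 in R 4.3.3 (lmFit, eBayes with trend, 4 group means, 4 residual degrees of freedom), with Benjamini-Hochberg adjustment over 12223 genes. The number of arrays limits precision. The scripts were tested on simulated data. Named genes are the members, 13 pathway genes fixed by name, up to 4 called genes of each list with the largest change and up to 4 others as values, and the 3 genes of nearest pattern to each member. Replicate numbers were checked for pairing. Over the 12223 genes, deviations of the replicate 1 arrays from their group means correlated at 0.13 in BCR-ABL1 and 0.27 in splenic cells. With 2 arrays per group, the deviations of replicate 2 only mirror those of replicate 1. Alternatives covered normalization, floor, filter, eBayes settings, probe set choice, left-out arrays, a source fitted alone and a replicate block.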

Additional observations from a re-analysis of the deposited data

Results flagged for a closer look

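The GFP effects of the 2 sources differed by a test of the difference itself (limma, adjusted p under 0.05) in 6 members, with positive values where the effect was higher in BCR-ABL1 cells. Rsad2 (2.47, adjusted p = 2.95e-06), Irf7 (1.98, adjusted p = 1.56e-05) and Irf9 (1.35, adjusted p = 5.79e-06) rose with GFP in BCR-ABL1 cells and fell in splenic cells. Usp18 (1.17, adjusted p = 3.05e-05) rose in both sources, by more in BCR-ABL1 cells. Ifih1 (-1.70, adjusted p = 0.00027) rose in both, by less in BCR-ABL1 cells. Irf1 (0.27, adjusted p = 0.0491) rose in BCR-ABL1 cells and was not called in splenic cells, but its difference lost the call in 12 of 20 alternatives and changed sign in 1 (0.0141 to 0.597). Its BCR-ABL1 rise was lost in 12 of 22, and its splenic effect was called higher on the deposited scale (adjusted p = 0.0126) and after the median shift (0.000531). Over all genes, 69.0% were called in this comparison.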

How the results depend on the processing

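Of 832 values of the members under alternatives, 781 kept their direction and their side of the threshold, 38 lost the call, 8 gained it and 5 changed sign. The sign changes were those of the difference of the GFP effects of Stat2 on the deposited scale (-0.41), after the median shift (-0.56) and with the mean of its probe sets (-0.37), the difference for Irf1 after the median shift (-0.0595) and the splenic effect of Irf1 without splenic GFP-negative replicate 1 (-0.0234, in a range of -0.0234 to 0.142 without 1 array). Leaving out 1 array in turn gave 209 to 979 genes and 3 to 7 members called in BCR-ABL1 cells, against 656 and 7. Testing all probe sets one by one gave 21129 calls in splenic cells, 18864 for the difference, 11900 between GFP-positive cells and 21322 between GFP-negative cells, since more features entered the test. The same scalings moved the share of higher genes among those called from 40.6% to 30.4% and 24.5% for the difference, and from 58.2% to 68.7% and 73.1% between GFP-negative cells. Same-numbered arrays share only a number. With the replicate block, 715 genes and 7 members were called in BCR-ABL1 cells, 9766 and 7 in splenic cells, 8835 and 6 for the difference, 6730 and 8 between GFP-positive cells (Ifnar2, 0.27, adjusted p = 0.0388, was added; 0.00181 to 0.228 over its alternatives) and 9952 and 8 between GFP-negative cells. The block changed no other call of a member. Normalizing and fitting the 4 arrays of a source alone, and the order of the groups under other scalings, were chosen after seeing the data. Where a change of call has no value beside it that shows the reason, the cause was not tested. Low signals limit Rsad2 most, then Ifih1 and Irf7, in GFP-negative BCR-ABL1 cells (means of 67.1, 108 and 129).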
